A study of Mus musculus with 4 samples.

Results

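The genes described here drive the cell cycle and copy DNA: cyclins and cyclin-dependent kinases (CDKs), E2F factors, origin licensing and helicase proteins, enzymes of nucleotide supply, and the kinases, motors and kinetochore proteins of mitosis. They were chosen by symbol from a list of 54 names, of which 53 matched exactly 1 row each among the 24771 features listed. The name Foxm1x matched no row, and Foxm1 was therefore read only within a wider list. PSC-derived SG placodes were compared with E12.5 SMGs, the submandibular glands of mouse embryos, with 2 samples in each group, to ask how these genes differ between the cultured and the native tissue.

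The placodes were grown from 129w2, a single mouse embryonic stem cell line, as floating aggregates seeded at 3000 cells per well, in medium that held 2% growth-factor-reduced Matrigel after the change on day 1. They received BMP4 at 2 ng/ml on day 3 and bFGF at 25 ng/ml with RA at 1 μM on day 4, followed from day 6 by FGF10 (200 ng/ml), and their RNA was taken on day 10. The SMGs were embryonic glands with no treatment named. Their strain, dissection and pooling are not given in the sources used here, nor is what separates the replicates of a group, so the p-values measure the spread between these samples, which may be technical. The labels treat both groups as embryonic salivary glands, the placodes as an induced form.

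Marker genes of more than 1 tissue were present in both groups. They are called lower or higher here at an adjusted p below 0.05, from the fit described below. Of all tested features, 40.4% were lower in the placodes and 35.7% higher. Of 10 markers of the salivary epithelium, 8 were lower in the placodes, where Krt5, Krt14 and Krt15 were listed at 0 in both samples. Krt8 and Krt18 did not pass, and their placode FPKM was 34.4 and 35.6 for Krt8 and 20.8 and 24.5 for Krt18. Their log2 fold changes, placodes minus SMGs, were 0.13 and 0.34 (limma adjusted p = 0.322 and 0.054). All 8 markers of postmitotic neurons were higher in the placodes, with a summed FPKM of 996 and 1035 against 93.7 and 84.0 in the SMGs, and so were all 8 of neural progenitors, at 809.7 and 843 against 81.0 and 76.1. All 8 mesenchyme and all 4 endothelial markers were lower in the placodes, as were the 6 tested of 8 erythroid markers, which summed to 0.224 and 0.399 against 2932 and 2946. Of the 4 leukocyte markers, 2 were tested and both were lower in the placodes. Mitochondrial transcripts took 5.93% and 5.88% of the summed FPKM in the placodes and 10.7% and 8.07% in the SMGs. The samples are bulk RNA, so fewer cells of a cycling type and less RNA per cell cannot be told apart, and the part that this mixture has in the values below was not tested.

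Progress through the cycle depends on genes that are switched on in waves. D-type cyclins with Cdk4 or Cdk6 phosphorylate the RB protein in G1, which frees E2F factors to switch on the genes of the G1/S transition and of DNA synthesis. Later, the MuvB complex with B-MYB and FOXM1 acts through a short element called CHR, often beside CCAAT boxes bound by NF-Y, to switch on genes of G2 and mitosis. In a growing gland bud and in the ventricular layer of the neural tube alike, cycling progenitors express these genes and cells that leave the cycle lose them.

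Stretches of promoter show these elements in members from both waves, and in Cdc25b, the member that differed most in the other direction from the rest. Each is 120 bases long, given 5′ to 3′ on the strand of the gene, and ends just before the annotated start. Capitals mark exact matches, on either strand, to TTCCCGC or TTGGCGC (E2F-type), TTTGAA (CHR) or CCAAT. The sequences are from RefSeq for GRCm38.p6.
Mcm6: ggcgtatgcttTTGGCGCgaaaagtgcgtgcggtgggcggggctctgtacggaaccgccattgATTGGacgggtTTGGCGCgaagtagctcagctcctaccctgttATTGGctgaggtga
Rrm1: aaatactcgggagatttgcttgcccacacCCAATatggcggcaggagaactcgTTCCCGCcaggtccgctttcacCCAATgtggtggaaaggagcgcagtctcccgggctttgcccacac
Cdk1: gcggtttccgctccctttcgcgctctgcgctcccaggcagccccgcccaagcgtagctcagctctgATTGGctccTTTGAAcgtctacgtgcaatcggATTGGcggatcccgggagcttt
Cdc20: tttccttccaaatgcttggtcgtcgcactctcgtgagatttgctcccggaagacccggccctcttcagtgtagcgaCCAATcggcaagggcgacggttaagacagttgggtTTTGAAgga
Kif11: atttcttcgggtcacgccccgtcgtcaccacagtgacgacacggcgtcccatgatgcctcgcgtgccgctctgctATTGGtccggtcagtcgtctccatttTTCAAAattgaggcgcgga
Top2a: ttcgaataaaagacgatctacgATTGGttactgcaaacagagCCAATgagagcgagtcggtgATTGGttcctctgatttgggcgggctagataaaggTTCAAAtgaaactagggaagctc
Cdc25b: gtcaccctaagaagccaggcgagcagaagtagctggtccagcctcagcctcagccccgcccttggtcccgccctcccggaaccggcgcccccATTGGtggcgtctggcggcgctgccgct
The Mcm6 stretch (chr1:128359706-128359825, minus strand) holds 2 E2F-type and 2 CCAAT matches, and that of Rrm1 (chr7:102441575-102441694, plus strand) holds 1 and 2. Each of the next 4 holds 1 CHR match and no E2F-type match: Cdk1 (chr10:69352939-69353058, minus strand), Cdc20 (chr4:118437353-118437472, minus strand), Kif11 (chr19:37376262-37376381, plus strand) and Top2a (chr11:99024190-99024309, minus strand). Cdc25b (chr2:131186828-131186947, plus strand) has 1 CCAAT match and neither of the others in these bases. These stretches were picked as examples and show only part of each promoter. Counted from the RefSeq start, Cdk1 also has an E2F-type match at -178 to -172 and a CHR match at -15 to -10, outside its stretch. Top2a has a further CHR match at -179 to -174. A match is a run of letters, not a measured binding site.

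Promoter windows were found for 43 of the 53 members, 47 windows in all, each from 250 bases before to 50 bases after a RefSeq start. Ccnd1, Ccnd2, Ccne2, Ccna2, Cdc25c, Mcm4, Gmnn, Aurkb, Kif20a and Tpx2 had no window. An E2F-type match was present in 31.9% of the members' windows and in 6.81% of all 32851 windows. CHR matches were present in 40.4% against 17.9%, and CCAAT matches in 74.5% against 37.4%. The members' windows were also richer in G and C, at a mean of 60.2% against 53.8%, and a CCAAT match on the reverse strand can overlap TTGGCGC, as 2 of the 24 E2F-type matches did.
The kinds of match divided by phase. Among members of G1 and S phase, 12 of 26 windows (46.2%) held an E2F-type match and 4 (15.4%) a CHR match. Among members of G2 and mitosis, with Mki67 and Top2a counted there, 3 of 21 windows (14.3%) held an E2F-type match and 15 (71.4%) a CHR match. Part of the latter lies just past the start, since the CHR share for G2 and mitosis was 33.3% when only the 250 bases before the start were read, against 16% of all windows. CCAAT matches were frequent in both, at 65.4% and 85.7%.

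**Figure D1:**
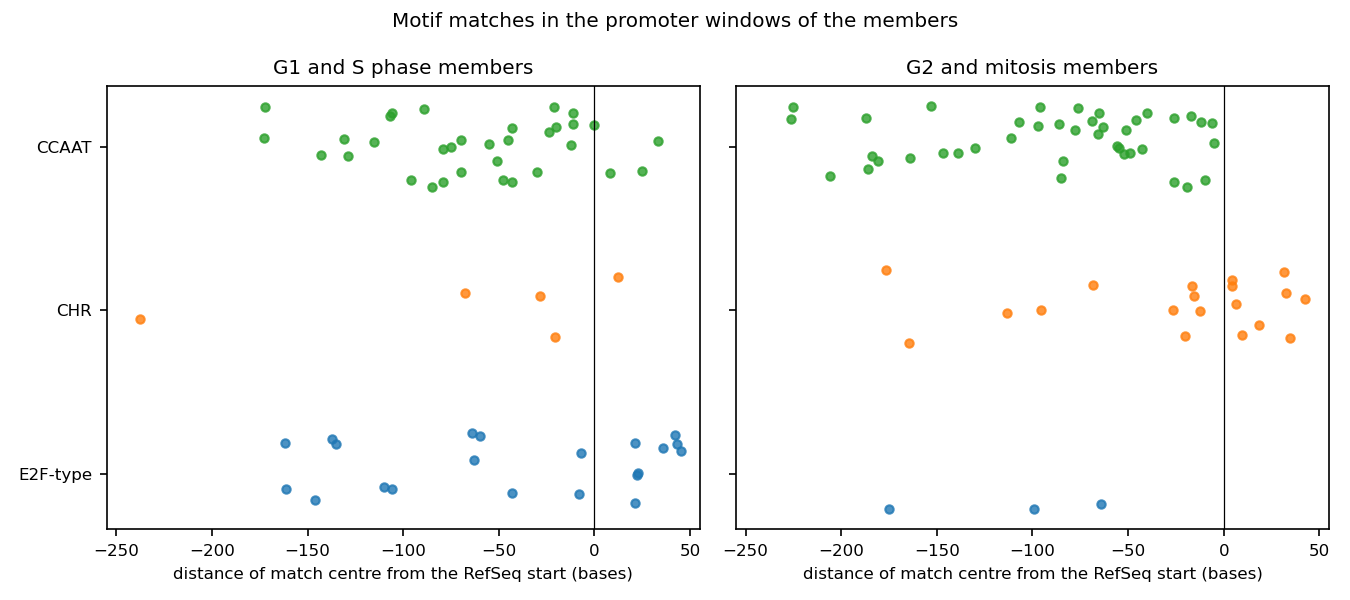
Positions of E2F-type, CHR and CCAAT matches, in bases from the RefSeq start (0, vertical line), in the promoter windows of G1 and S phase members (left, 26 windows) and of G2 and mitosis members (right, 21 windows); each point is 1 match and the vertical scatter within a row only separates points. E2F-type matches fill the left panel and number 3 on the right, while CHR matches gather around the start on the right.

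The values are FPKM as deposited, that is, fragments scaled to transcript length and to the mapped fragments of the sample. FPKM sums ranged from 361963 to 384773 over the 4 samples, and 12636 to 12807 features reached an FPKM of 1 in each sample. No read counts were among the values, so depth is unknown and no counting interval is given. All 53 members had a mean FPKM of at least 1 over the 4 samples and were tested, within limma's fit to log2(FPKM + 1) over 13193 features. Log2 fold changes are placodes minus SMGs on that scale, which understates the change of low genes. SE stands for limma's moderated standard error, which draws on all tested features and not on the gene's own samples alone. Adjusted p-values are from limma with Benjamini-Hochberg adjustment over all tested features. With 2 samples in each group, no exact permutation test could go below p = 0.333.

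Nearly the whole set was lower in the placodes. Of the 53 members, 48 (90.6%) had an adjusted p below 0.05 and were lower in the placodes, where 40.4% of all tested features were. Only 2 of the 53, E2f1 and Cdc25b, were higher, against 35.7% of all tested features, and E2f2, E2f3 and Cenpf did not pass the threshold. In either direction 50 members (94.3%) passed, against 76.2% of all tested features. The median log2 fold change of the members was -0.74, against -0.05 over all tested features. Summed over the members, FPKM was 1177 and 1197 in the placodes and 2107 and 2067 in the SMGs, or 0.323% and 0.331% of all FPKM against 0.548% and 0.553%. All 53 members had groups without overlap, as had 88.4% of all tested features.
Differences were moderate in size for most members. Of the 53 tested members, 16 were called and at least 2-fold lower on the log2(FPKM + 1) scale, as were 15.2% of all tested features. Among those called lower at any fold, they were 16 of 48 members and 2011 of 5333 features, so the members showed no excess within the features called lower. The median absolute log2 fold change was 0.76 over the members and 0.55 over all tested features. Only Cdc25b was at least 2-fold higher, against 14.1% of all tested features. Between the samples of a group, the median absolute log2 difference of a member was 0.06 in the placodes and 0.07 in the SMGs, and the largest was 0.32 for Gmnn and 0.31 for Mcm10. The 27 members of G1 and S phase had a median log2 fold change of -0.80, with 24 lower. The 26 members of G2 and mitosis had a median of -0.73, also with 24 lower, beside 40.4% of all tested features. The G1 and S phase members ranged from -2.66 to 0.38 and those of G2 and mitosis from -1.25 to 2.12. At least 2-fold lower were 11 of the 27 former and 5 of the 26 latter, beside 15.2% of all tested features.

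**Figure D2:**
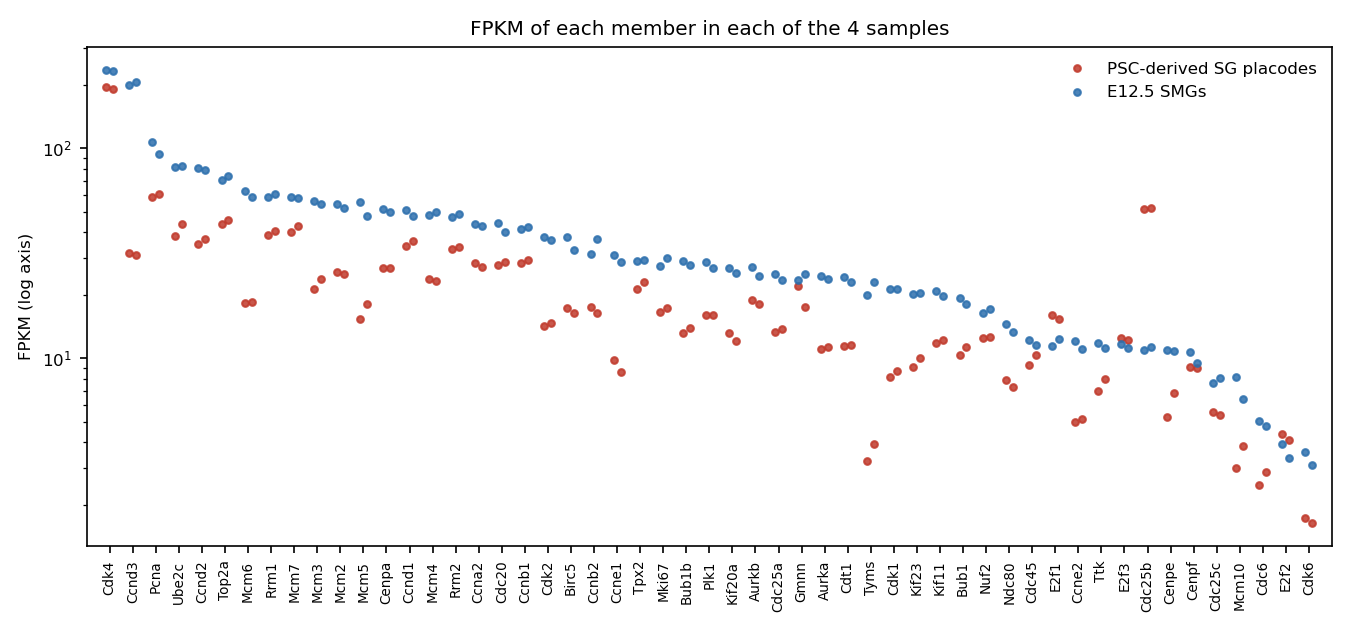
FPKM of each of the 53 members on a log axis, ordered by the mean in the SMGs, with placodes in red and SMGs in blue; replicate 1 is on the left and replicate 2 on the right of each pair. Blue points lie above red ones for all members except Cdc25b, E2f1, E2f2 and E2f3, and Ccnd3, Tyms and Cdc25b show the widest gaps.

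**Figure D3:**
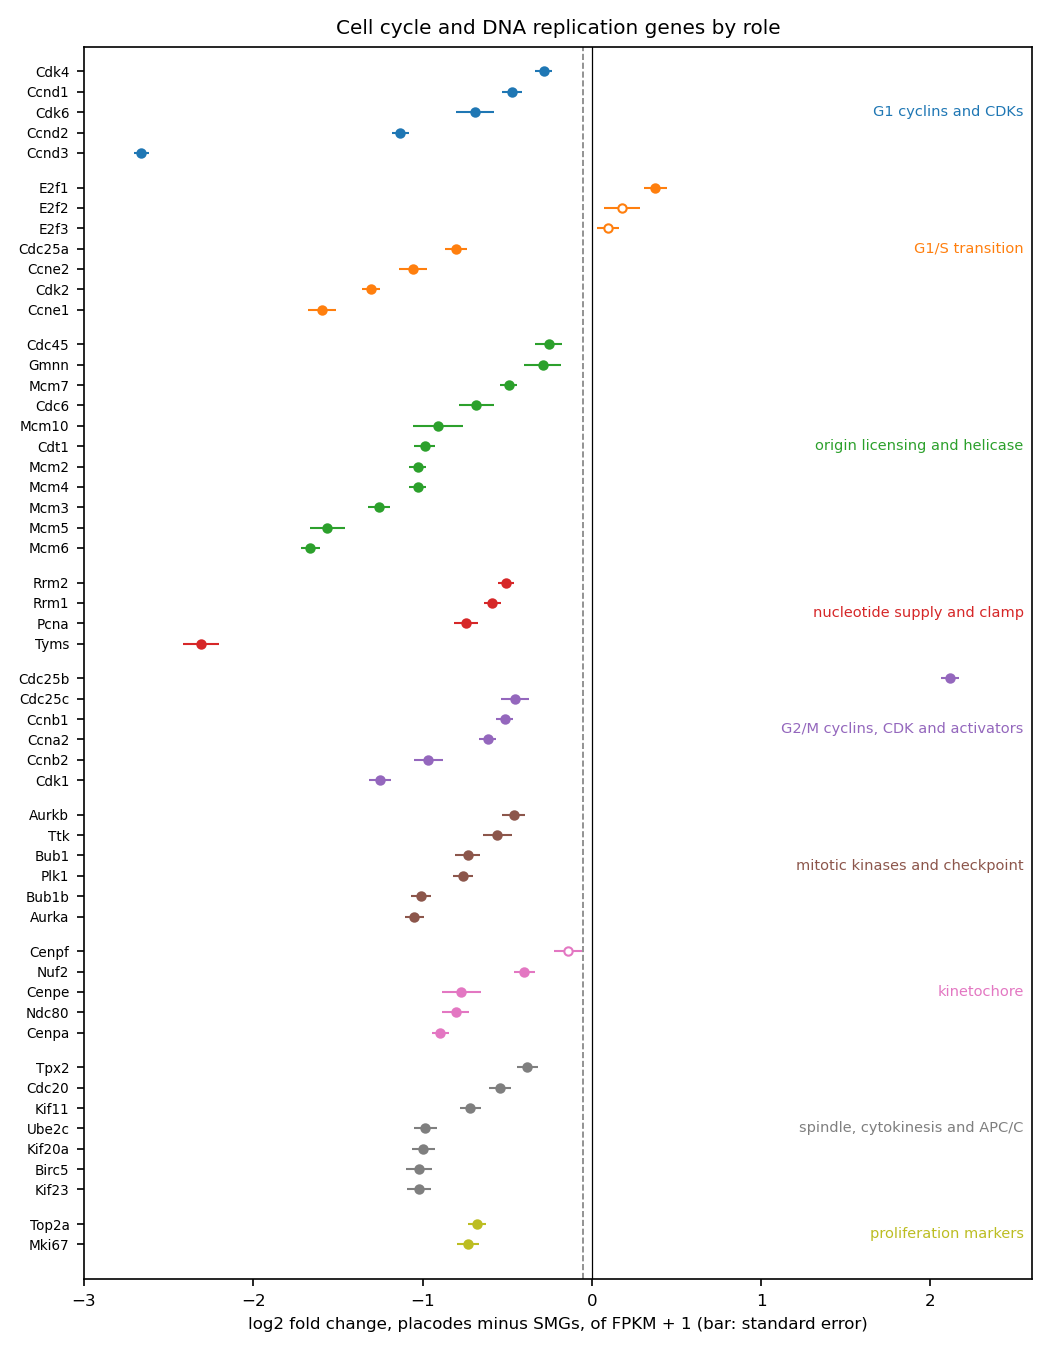
Log2 fold change of FPKM + 1, placodes minus SMGs, for the 53 members by role. Bars show limma's moderated standard error, which draws on all tested features as well as on the gene's own 2 samples per group. Filled points have an adjusted p below 0.05, and the dashed line is the median over all tested features (-0.05). Of the filled points, 48 lie left of 0 and those of E2f1 and Cdc25b lie right of it.

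All 5 G1 cyclin and CDK genes were lower in the placodes, as were 40.4% of all tested features. The D-type cyclins were lower by very different amounts. Ccnd3 had the lowest log2 fold change of all members. This gene (ENSMUSG00000034165) is at chr17:47505051-47599691 in GRCm38. Its FPKM was 31.6 and 31.0 in the placodes, replicate 1 first as in every pair of values here, and 199.9 and 206 in the SMGs. This gave a log2 fold change of -2.66 (SE 0.05, adjusted p = 2.22e-07). The SMG samples were thus 6.49-fold above the placodes in mean FPKM. Ccnd2 was at 34.9 and 36.8 against 80.4 and 79.1 (log2 fold change -1.13, adjusted p = 4.95e-06). Ccnd1 differed least of the 3, at 34.3 and 36.1 against 50.8 and 47.5 (log2 fold change -0.47, adjusted p = 4.22e-04).
The D-type cyclins were near equal in the placodes, and Ccnd3 led in the SMGs. Ccnd3 made up 31.4% and 29.8% of their summed FPKM in the placodes, against 60.4% and 62.0% in the SMGs. The share of Ccnd1 was 34.0% and 34.8% against 15.4% and 14.3%, and that of Ccnd2 was 34.6% and 35.5% against 24.3% and 23.7%. Such a share is taken within a sample, so it does not depend on how the samples were scaled to each other. Ccnd1 shares 23.4% of its annotated exonic bases with another gene and Ccnd3 shares 4.11%, and the annotation lists a pseudogene of Ccnd3, to which reads may be assigned.
Cdk4, a kinase partner of the D-type cyclins, was the most abundant member in the placodes and in the SMGs, at 196 and 191 against 237 and 235, and its log2 fold change was the smallest of this group at -0.29 (adjusted p = 0.0020). Its relative Cdk6 was scarce in all 4 samples, at 1.74 and 1.64 against 3.59 and 3.10 (log2 fold change -0.69, adjusted p = 0.0015). Cdk4 exceeded Cdk6 by 113-fold and 116-fold in the placodes, and by 65.9-fold and 75.7-fold in the SMGs.

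At the G1/S transition, the genes of cyclin E and its kinase were lower and E2f1 was higher. Ccne1, which encodes cyclin E1, was at 9.87 and 8.66 in the placodes and 31.2 and 28.7 in the SMGs (log2 fold change -1.59, standard error 0.08, adjusted p = 9.17e-06). Ccne2 was at 4.97 and 5.16 against 12.1 and 11.1 (log2 fold change -1.06). Their partner Cdk2 was at 14.3 and 14.7 against 37.8 and 36.6 (log2 fold change -1.30, adjusted p = 3.77e-06), and Cdc25a, the phosphatase that activates it, at 13.4 and 13.8 against 25.3 and 23.5 (log2 fold change -0.80). All 4 were thus lower in both placode samples than in either SMG sample.
Of the 3 activating E2F genes, E2f1 was higher and the others did not pass the threshold. E2f1 (ENSMUSG00000027490, chr2:154559407-154569892) was at 16.04 and 15.5 in the placodes and 11.5 and 12.3 in the SMGs (log2 fold change 0.38, standard error 0.07, adjusted p = 0.0026). E2f2 was at 4.36 and 4.09 against 3.90 and 3.35 (adjusted p = 0.169), and E2f3 at 12.4 and 12.2 against 11.7 and 11.2 (adjusted p = 0.222). The E2f1 transcript level was therefore higher in the group in which most other members were lower.

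All 11 genes of origin licensing and the replicative helicase were lower in the placodes, as were 40.4% of all tested features. The median log2 fold change of the 11 genes was -0.99. Mcm2 to Mcm7 encode the 6 subunits of the ring that unwinds DNA, and their summed FPKM was 145 and 152 in the placodes against 335 and 320.2 in the SMGs. Mcm6 (ENSMUSG00000026355, chr1:128331590-128359664), whose promoter stretch with 2 E2F-type and 2 CCAAT matches is printed above, had the lowest log2 fold change of the group. Its FPKM was 18.3 and 18.5 against 62.4 and 58.5. This gave a log2 fold change of -1.66 (SE 0.05, adjusted p = 1.50e-06). Mcm5 was at 15.3 and 18.2 against 55.3 and 47.6 (log2 fold change -1.56), and Mcm3 at 21.4 and 23.9 against 56.2 and 54.6 (log2 fold change -1.26). Mcm2 and Mcm4 each differed by -1.03 on the log2 scale. Mcm7 differed least, at 40.0 and 42.5 against 58.9 and 57.8 (log2 fold change -0.49, adjusted p = 2.15e-04).
The subunits were close to equal in the SMGs and unequal in the placodes. Across the 6 genes, the highest FPKM exceeded the lowest by 1.29-fold and 1.23-fold in the SMG samples and by 2.61-fold and 2.34-fold in the placode samples, where Mcm7 was highest and Mcm5 lowest. The coefficient of variation over the subunits was 8.47% and 8.22% in the SMG samples and 35.9% and 35.4% in the placode samples. Without Mcm7, which shares 12.6% of its exonic bases with other genes, it was 9.09% and 8.09% against 19.96% and 14.9%. Mcm7 held 27.7% and 28.0% of their sum in the placodes and 17.6% and 18.1% in the SMGs, while Mcm6 held 12.7% and 12.2% against 18.6% and 18.3%.
The loading factors and helicase cofactors were lower as well. Cdt1, which loads the helicase with Cdc6, was at 11.4 and 11.5 against 24.5 and 23.0 (log2 fold change -0.99, adjusted p = 2.10e-05). Cdc6 was at 2.50 and 2.89 against 5.05 and 4.78 (log2 fold change -0.68), and Mcm10, which helps start unwinding, at 3.01 and 3.81 against 8.19 and 6.40 (log2 fold change -0.91). Gmnn, which encodes geminin, the inhibitor of Cdt1, was at 22.2 and 17.6 against 23.6 and 25.3 (log2 fold change -0.29, adjusted p = 0.048). Gmnn thus differed little, with the placode samples apart from each other, and the ratio of Gmnn to Cdt1 FPKM was 1.94 and 1.53 in the placodes and 0.963 and 1.10 in the SMGs. Cdc45, a helicase cofactor, was at 9.34 and 10.4 against 12.3 and 11.6 (log2 fold change -0.26, adjusted p = 0.025). The calls of Gmnn and Cdc45 were lost under 10 and 5 of the alternatives tried: scaled to an equal sum per sample, their adjusted p-values were 0.098 and 0.063, and without SMG sample 1 they were 0.146 and 0.136, at log2 fold changes of -0.34 and -0.22. Gmnn was also not called without placode sample 2, where its log2 fold change was -0.13 (adjusted p = 0.200), or without SMG sample 2, where it was -0.24 (adjusted p = 0.257). Cdc45 was not called without placode sample 1 (log2 fold change -0.19, adjusted p = 0.132) or SMG sample 2 (log2 fold change -0.29, adjusted p = 0.076).

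The 4 genes of nucleotide supply and the sliding clamp were also lower, beside 40.4% of all tested features, with Tyms far below the rest. Tyms (ENSMUSG00000025747, chr5:30058202-30073617) encodes thymidylate synthase, which makes dTMP. Its FPKM was 3.26 and 3.90 in the placodes and 20.1 and 23.1 in the SMGs. This gave a log2 fold change of -2.31 (SE 0.11, adjusted p = 5.78e-06) and a 6.05-fold difference of mean FPKM. Pseudogenes of Tyms and of Pcna are annotated, so part of the reads of both genes may be uncertain. Rrm1 and Rrm2, the subunits of ribonucleotide reductase, differed less, by -0.59 and -0.51 on the log2 scale. Rrm2 was at 33.2 and 33.8 against 47.1 and 48.9. Pcna, the clamp that holds DNA polymerase in place, was at 58.8 and 60.7 against 107 and 94.5 (log2 fold change -0.74, adjusted p = 1.21e-04).

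Among the cyclins and activators of G2 and mitosis, 5 of 6 matched members were lower and Cdc25b was higher. The shares over all tested features were 40.4% lower and 35.7% higher. Cdk1, the kinase that drives entry into mitosis, had an FPKM of 8.13 and 8.67 in the placodes and 21.4 and 21.3 in the SMGs (log2 fold change -1.25, standard error 0.07, adjusted p = 9.68e-06). Its cyclins Ccna2, Ccnb1 and Ccnb2 differed by -0.61, -0.51 and -0.97 on the log2 scale. Cdk1 made up 36.3% and 37.1% of the summed FPKM of Cdk1 and Cdk2 in the placodes and 36.1% and 36.8% in the SMGs, ranges that overlap. Transcript levels of both kinases were thus lower in the placodes, and the share of Cdk1 moved by less than the spread between samples.
Cdc25b had the largest positive difference of all members. It encodes a phosphatase that activates Cdk1 (ENSMUSG00000027330, chr2:131186949-131198497). Its FPKM was 51.5 and 51.8 in the placodes and 11.0 and 11.3 in the SMGs. This gave a log2 fold change of 2.12 (SE 0.05, adjusted p = 5.43e-07) and a 4.64-fold difference of mean FPKM. Cdc25c, the other mitotic phosphatase, was lower, at 5.55 and 5.40 against 7.67 and 8.09 (log2 fold change -0.45, adjusted p = 0.0025). Cdc25b made up 73.1% and 73.0% of the summed FPKM of the Cdc25 genes in the placodes and 25.0% and 26.3% in the SMGs. Cdc25a led in the SMGs, with 57.6% and 54.8%, and held 19.0% and 19.4% in the placodes. The sum over the 3 phosphatases was higher in the placodes, at 70.5 and 71.0 against 44.0 and 42.9.

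**Figure D4:**
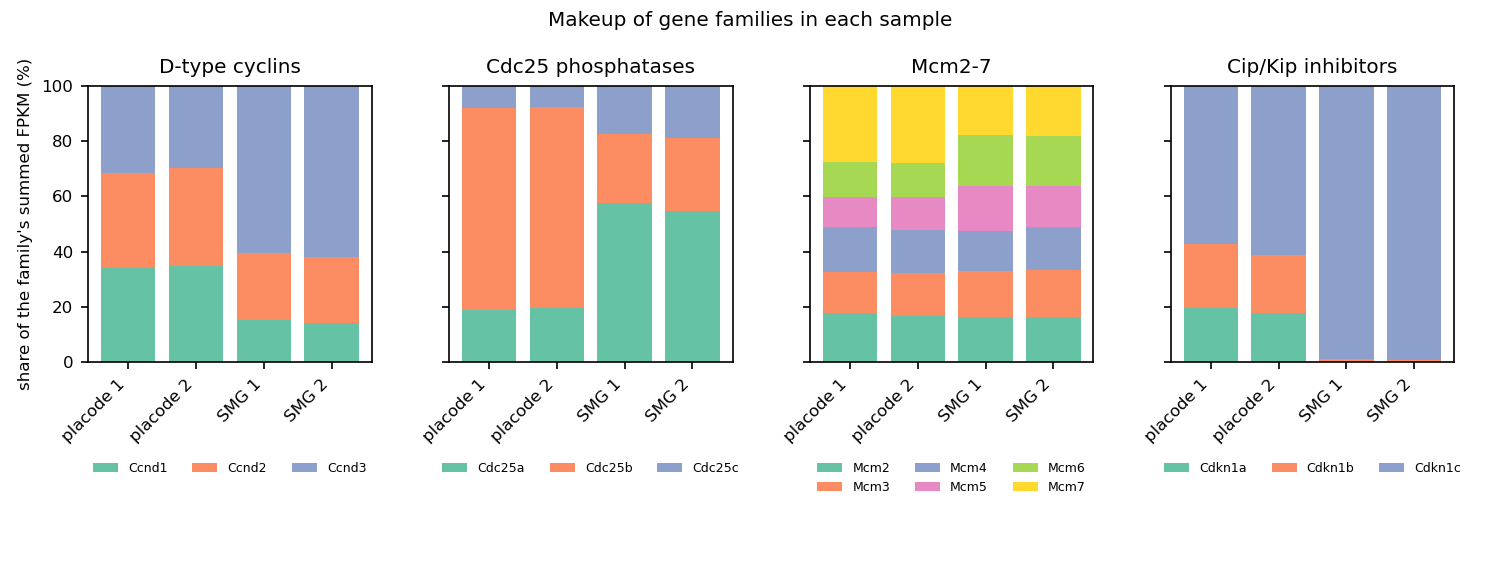
Share of each gene in the summed FPKM of its family (%), in each of the 4 samples, for the D-type cyclins, the Cdc25 phosphatases, the helicase subunits Mcm2 to Mcm7 and the Cip/Kip inhibitors. Ccnd3, Cdc25a and Cdkn1c lead their families in both SMG samples, and Cdc25b takes 73.1% and 73.0% of its family in the placode samples.

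The mitotic machinery was mostly lower, with log2 fold changes from -1.05 (Aurka) to -0.14 (Cenpf). All 6 mitotic kinases and checkpoint genes and 4 of 5 kinetochore genes were lower. So were all 7 genes of the spindle, cytokinesis and the anaphase-promoting complex (APC/C), beside 40.4% of all tested features. The median log2 fold changes of these groups were, in this order, -0.75, -0.77 and -0.98. Aurka, the kinase of spindle poles, was at 11.1 and 11.4 in the placodes and 24.7 and 24.0 in the SMGs (log2 fold change -1.05, adjusted p = 1.26e-05). Aurkb, the kinase of the inner centromere, differed least of the kinases, at 19.0 and 18.1 against 27.2 and 24.7 (log2 fold change -0.46, adjusted p = 0.0011). The remaining kinases lay between them: Bub1b at -1.01, Plk1 at -0.76, Bub1 at -0.73 and Ttk at -0.56.
In the kinetochore group, Cenpa, the histone variant that marks centromeres, was at 26.8 and 26.9 against 51.7 and 50.0 (log2 fold change -0.89, adjusted p = 1.13e-05). Cenpf, a large protein of the outer kinetochore, was at 9.06 and 8.996 against 10.7 and 9.47 (log2 fold change -0.14, adjusted p = 0.165). Ndc80 and Nuf2 encode partners in a complex that binds microtubules, and they differed by -0.80 and -0.40. Cenpe, a motor that moves chromosomes, differed by -0.77.
Kif23, a motor of the central spindle, was at 9.09 and 10.0 against 20.4 and 20.5 (log2 fold change -1.02, adjusted p = 3.19e-05). Birc5, which encodes survivin, also differed by -1.02, and Kif20a, another motor of the central spindle that shares 29.3% of its exonic bases with a neighbouring gene, by -0.99. Tpx2, a spindle assembly factor, differed least, at 21.3 and 23.2 against 29.1 and 29.4 (log2 fold change -0.38, adjusted p = 0.0014). Of the genes of APC/C, Ube2c, its E2 enzyme, was at 38.3 and 43.7 against 81.2 and 82.7 (log2 fold change -0.98), and its activator Cdc20 differed by -0.54. Kif11, the motor that separates spindle poles, differed by -0.72.
The widely used proliferation markers were lower to a like degree. Mki67, which encodes the Ki-67 antigen, was at 16.7 and 17.3 against 27.7 and 30.1 (log2 fold change -0.73, standard error 0.06, adjusted p = 9.09e-05). Top2a, the topoisomerase that untangles replicated DNA, was at 43.4 and 45.8 against 70.4 and 73.6 (log2 fold change -0.68, adjusted p = 5.30e-05). Both lie close to the median of all members.

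Genes of the same pathways outside the set were read from fixed lists. Of 42 other replication genes, 37 (88.1%) were lower, 1 was higher and 4 did not pass the threshold. Their median log2 fold change was -0.82. Of all tested features, 40.4% were lower and 35.7% higher. Tk1, thymidine kinase, had the lowest value of that list, at 9.62 and 9.22 against 38.2 and 33.5 (log2 fold change -1.82, adjusted p = 4.23e-06), and Orc4, of the origin recognition complex, the highest, at 17.5 and 18.6 against 14.3 and 15.1 (log2 fold change 0.28, adjusted p = 0.0081). The call of Orc4 was lost without placode sample 2 (adjusted p = 0.067) or SMG sample 1 (adjusted p = 0.054). Salvage and new synthesis of dTMP, through Tk1 and Tyms, thus held low positions in both lists.
Of 48 other mitosis genes, 38 (79.2%) were lower, against 40.4% of all tested features. A further 3 (6.25%) were higher, against 35.7%, and 7 did not pass. The median was -0.55. Anln, a cytokinesis scaffold, was lowest, at 7.28 and 7.07 against 17.1 and 16.5 (log2 fold change -1.12). Racgap1, a regulator of the central spindle that forms a complex with Kif23, was highest, at 67.8 and 69.7 against 31.6 and 28.7 (log2 fold change 1.16, standard error 0.06, adjusted p = 9.68e-06). These partners therefore differed in opposite directions. The other higher genes were Ckap2 and Ncapd2, chosen here after their values were seen, with log2 fold changes of 0.73 and 0.27; the call of Ncapd2 was lost without placode sample 2 (adjusted p = 0.106) or SMG sample 1 (adjusted p = 0.068). Foxm1, which the unmatched name resembles, was at 9.89 and 11.4 against 13.1 and 12.45 (log2 fold change -0.24, adjusted p = 0.041), and its adjusted p was 0.098 after scaling to an equal sum per sample and 0.083 after median-ratio scaling. Without placode sample 1, SMG sample 1 or SMG sample 2 it was 0.189, 0.197 and 0.114.

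The RB, E2F and DREAM factors, which regulate these genes, went in both directions. Of the 14, 6 were lower, 3 were higher and 5 did not pass, with a median log2 fold change of -0.08. This is close to all tested features, of which 40.4% were lower and 35.7% higher with a median of -0.05, and the difference from the members was not tested. Rb1, which encodes the RB protein, was highest, at 21.0 and 20.6 in the placodes and 5.47 and 4.16 in the SMGs (log2 fold change 1.91, standard error 0.12, adjusted p = 1.79e-05). E2f5 and Tfdp2, chosen here after their values were seen, were higher by 0.90 and 0.91. E2f7, a repressor, was lowest, at 2.50 and 2.47 against 5.16 and 5.38 (log2 fold change -0.85).
The CDK inhibitors differed most, and in both directions. Cdkn1a, which encodes p21, was at 49.0 and 42.3 in the placodes and 7.12 and 4.32 in the SMGs (log2 fold change 2.82, standard error 0.19, adjusted p = 3.07e-05). Cdkn1b, which encodes p27, was at 58.3 and 50.1 against 19.98 and 18.2 (log2 fold change 1.45), and Cdkn2d at 25.9 and 26.7 against 13.0 and 14.2 (log2 fold change 0.90). Cdkn1c, the imprinted gene of p57, was at 144 and 146 against 2448 and 2775 (log2 fold change -4.16, adjusted p = 2.59e-07). In the SMGs, Cdkn1c made up 98.9% and 99.2% of the summed FPKM of the Cip/Kip genes, and in the placodes it made up 57.3% and 61.3%. Cdkn2c was lower by -0.57 on the log2 scale, while Cdkn2a and Cdkn2b were below an FPKM of 1 in every sample and were not tested.

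**Figure D5:**
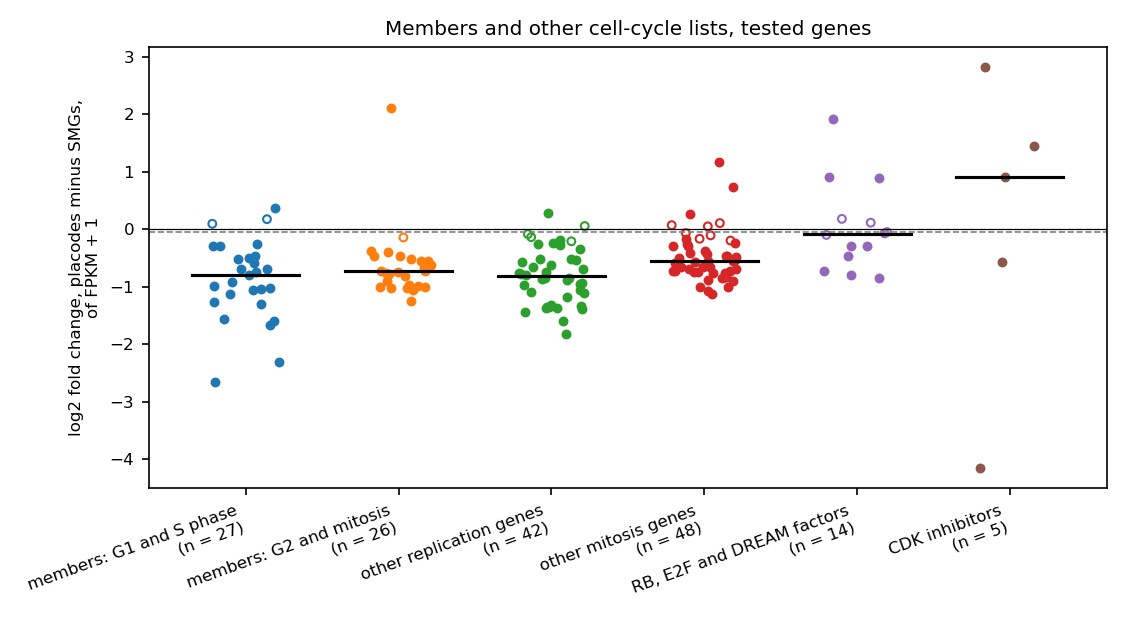
Log2 fold change of FPKM + 1, placodes minus SMGs, of every tested gene in the members of G1 and S phase, the members of G2 and mitosis, and 4 other lists; filled points have an adjusted p below 0.05, black bars are medians, and the dashed line is the median over all tested features (-0.05). The first 4 columns lie mostly below 0, with medians of -0.80, -0.73, -0.82 and -0.55, while the RB, E2F and DREAM factors lie around 0 and the CDK inhibitors spread from -4.16 to 2.82.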

How the data were processed

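Total RNA of 2 samples of PSC-derived SG placodes and 2 of E12.5 SMGs was sequenced as paired-end reads. The authors mapped the reads with HISAT2 (version not given in the sources used here) and deposited FPKM per gene; the program that computed FPKM, the annotation and strandedness are not given in the sources used here. The submitters' processing notes name GRCm38 and also GRCh38, and all gene identifiers are of mouse. Overlapping genes and pseudogenes can share reads under such counting.

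The 13193 features whose mean FPKM over the 4 samples reached 1, of which 479 had no gene name, were fitted on the log2(FPKM + 1) scale with limma 3.58.1 in R 4.3.3 (lmFit and eBayes, trend on) and no covariate beside the group. All p-values are two-sided, after Benjamini-Hochberg adjustment, and a feature was called at an adjusted p below 0.05. The procedure was also run on simulated data with independent noise and few changed features. That setting differs from these data, where 76.2% of tested features were called, so it does not test the calls made here. Positions and shared exonic bases were taken from GENCODE M21 (GRCm38), in which all 53 members were found by identifier and 17 share exonic bases with another gene. Among those not named above for it, Ube2c shares 22.8%, Cdk4 19.7% and Ccne2 17.4%, and the rest 12.7% or less. A pseudogene of the same name is annotated for 5 members: Ccnd3, Pcna, Tyms, Ccnb1 and Ccnb2. Promoters were read from RefSeq (GRCm38.p6). Where GENCODE starts a gene further upstream, the printed stretch ends before that start. Figures were drawn with Python 3.11.15.

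The members, their roles and the other lists were chosen with earlier results of these data known. By rule, each role group is described by its highest and lowest member, with families whose members differ in direction in full, and Foxm1 in any case; further members were added for their roles. Replicate 1 deviated from its group mean with a correlation of -0.03 between the groups over the 13193 features, which shows no pairing by number over all features. A single correlation cannot exclude a pairing or batch that acts on part of the genes. Alternatives changed 1 choice at a time.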

Additional observations from a re-analysis of the deposited data

How the results depend on the processing

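Under 16 alternatives, 46 to 48 members were lower and 2 were higher in the placodes, the latter under every alternative run. The alternatives were pseudocounts, scalings, filters, eBayes settings, a replicate block, the named features alone, and each sample left out. Of the 53 members, 51 kept direction and side of the threshold under every alternative in which they were tested. Cdk6, Cdc6 and E2f2 were not tested with a mean FPKM of at least 5. Gmnn and Cdc45 kept direction only. With the replicate block, 50 members were called, as without it, and the block changed no member's call; the replicate numbers were not found to pair the samples. The median log2 fold change of the members ranged from -0.85 with a pseudocount of 0.001 to -0.68 with median-ratio scaling. It lay between -0.78 and -0.72 with each sample left out. The median over all tested features moved from -0.05 to 0.01 when scaled to an equal sum per sample. With a mean FPKM of at least 5, 1 CDK inhibitor was lower in place of 2, since fewer genes were tested. Other replication genes that were higher numbered 0 to 1 with each sample left out.

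With each sample left out, the difference in the share of Cdk1 (placodes minus SMGs) ranged from -0.142 to 0.660 percentage points, that of Cdk2 from -0.660 to 0.142, and that of E2f2 within the E2F genes from -1.32 to 0.613. Read only before the start, CHR matches were in 23.4% of the members' windows and in 33.3% of those of G2 and mitosis, and all windows held E2F-type, CHR and CCAAT matches in 5.62%, 16% and 33.8%. On the given strand only, all windows held them in 3.49%, 10.2% and 21.1%, and CCAAT matches were in 48.9% of the members' windows, 42.3% for G1 and S phase and 57.1% for G2 and mitosis. With 2 samples a group, their spread sets the precision of every value, and depth is unknown.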
